A study of Mus musculus with 8 samples.

Results

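Inflammatory chemokines and their receptors were followed in spleens of mice lacking Nix, the mitochondrial protein encoded by Bnip3l, and in wild-type spleens. The group comprised 31 of the 18193 genes on the array, 18 ligands and 13 receptors chosen by symbol, and every probe set annotated to one of them was taken, which gave 49 of the 45037 non-control probe sets. All mice were 8 weeks old. There were 4 Nix-null (Nix-/-) and 4 wild-type spleens, untreated, each from an unpooled RNA extract on its own array. Arrays are called Nix_KO 10, 2, 3 and 6 and WT 3, 4, 5 and 6 after the numbers in their titles. The strain, the sex and the deleted part of the gene are not given in the sources used here.

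Chemokines are small secreted proteins that steer migrating leukocytes by binding G protein-coupled receptors on their surface. The ligands are named CC or CXC after the spacing of their conserved cysteines, and one receptor often binds several ligands. Inflammatory chemokines are made on demand by macrophages, stromal cells and lymphocytes and draw in monocytes, neutrophils and effector T cells, whereas homeostatic chemokines hold B cells, T cells and dendritic cells in their own zones of the spleen.

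Values are log2 intensities of the authors' deposited intensities, and a change is the Nix-null mean minus the wild-type mean on that scale. Probe sets that reached a log2 intensity of 5 on 4 or more arrays counted as above background, and only these were tested. The limma test was run on all 22347 such probe sets, with p-values adjusted over all of them and a threshold of 0.05. Array medians ran from 28.8 to 30.6 on the linear scale, and 48.6% to 49.3% of probe sets reached a log2 intensity of 5. The 3 probe sets of Bnip3l, which are annotated jointly to its pseudogene, read between 9.38 and 13.16 across the arrays and passed the test in no case, so they do not check the genotype labels. Pancreatic acinar genes, which are foreign to spleen, were high in Nix_KO 3, WT 3 and WT 5 (list means of 12.81, 11.85 and 9.84) and between 5.43 and 7.21 in the other arrays. B cell markers, which define the lymphoid spleen, read from 9.67 to 11.61 as a list mean in the 8 arrays.

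Of the 49 probe sets, 22 were above background, and these belonged to 15 of the 31 genes. None of the 22 was higher in Nix-null spleen, and 4 were lower, 1 each of Ccr6, Cxcr3, Cxcr6 and Cxcl16 (limma, adjusted p under 0.05). At an unadjusted p under 0.05 there were 0 higher and 10 lower. The unequal-variance test called 0 in either direction, and the fit with array weights called 1 higher, Ccr2, and 5 lower. Over all 22347 probe sets tested, 30% were called, 12.5% higher and 17.6% lower. The 4 lower ones were 18.2% of the 22, close to the share over all probe sets, so the count alone does not set these genes apart. The median change of the 22 was -0.30 against -0.12 over all probe sets tested. In 3 of the 22 the Nix-null arrays all lay below the wild-type arrays and in 0 all above, against 19.5% and 15% of all probe sets tested. Without the 3 arrays with pancreatic signal, 0 of the 22 were called lower. The 4 changes were then -1.31 for Ccr6, -1.03 for Cxcr3, -1.52 for Cxcr6 and -0.89 for Cxcl16, with limma adjusted p of 0.103, 0.0526, 0.0756 and 0.0832. With each array centred on its median the median change over all probe sets moved from -0.12 to 0.00, and 52.4% in place of 41.6% of all calls were higher. None of the 22 changes turned its sign under centring or quantile normalization.

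The regions around the start sites of the receptor genes that fell are shown first, so that the letters they share can be set beside their values. Each window runs from 250 bases before to 50 bases after a start site, 5' to 3' on the strand of the gene, from RefSeq on GRCm38.p6. RefSeq gives Ccr6 a pair of windows and Cxcr3 and Cxcr6 one each. Capitals mark the textbook core of RUNX factors, TGTGGT, and a kappaB form bound by NF-kappaB (GGGA, any base, TT, any base, CC), searched on both strands and with no overlap between them here. The motifs were chosen after the sequences had been seen.
Ccr6 upstream start, chr17:8235793-8236092, plus strand: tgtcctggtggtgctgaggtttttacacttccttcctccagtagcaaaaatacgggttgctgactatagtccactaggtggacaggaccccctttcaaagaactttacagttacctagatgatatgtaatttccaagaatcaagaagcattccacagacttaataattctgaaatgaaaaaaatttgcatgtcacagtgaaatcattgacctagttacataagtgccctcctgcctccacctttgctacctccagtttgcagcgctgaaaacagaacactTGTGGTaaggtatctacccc
Ccr6 downstream start, chr17:8242276-8242575, plus strand: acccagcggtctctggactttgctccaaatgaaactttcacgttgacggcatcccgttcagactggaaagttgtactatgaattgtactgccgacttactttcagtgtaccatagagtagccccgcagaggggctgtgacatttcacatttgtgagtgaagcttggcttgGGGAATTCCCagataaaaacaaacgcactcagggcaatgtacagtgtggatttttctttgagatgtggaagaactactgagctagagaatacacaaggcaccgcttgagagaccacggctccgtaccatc
Cxcr3, chrX:101734098-101734397, minus strand: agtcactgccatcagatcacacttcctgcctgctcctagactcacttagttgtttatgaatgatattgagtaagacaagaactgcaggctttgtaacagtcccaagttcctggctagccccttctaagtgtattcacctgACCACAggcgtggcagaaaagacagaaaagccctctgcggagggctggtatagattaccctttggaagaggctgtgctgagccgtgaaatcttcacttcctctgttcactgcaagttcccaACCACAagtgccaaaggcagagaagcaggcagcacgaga
Cxcr6, chr9:123806227-123806526, plus strand: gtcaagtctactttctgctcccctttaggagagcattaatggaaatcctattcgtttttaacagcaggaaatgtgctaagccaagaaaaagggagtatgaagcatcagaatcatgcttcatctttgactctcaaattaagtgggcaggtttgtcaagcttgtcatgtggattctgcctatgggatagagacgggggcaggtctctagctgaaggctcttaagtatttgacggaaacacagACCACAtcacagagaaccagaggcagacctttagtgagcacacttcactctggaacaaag
The RUNX core was present in the upstream window of Ccr6, in that of Cxcr6 and, 2 times, in that of Cxcr3, and the kappaB form in the downstream window of Ccr6. Windows were found for 23 of the 31 genes, 25 windows in all, and Cxcl16 was not among them. The RUNX core occurred in 6 of the 25 (Ccl3, Ccr1, Ccr6, Cx3cr1, Cxcr3 and Cxcr6) and in 16.8% of all 32851 windows. The kappaB form occurred in 4 of the 25 (Ccr3, Ccr6, Cxcl1 and Cxcl2) and in 1.2% of all windows. A match describes the letters and shows no binding.

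**Figure D1:**
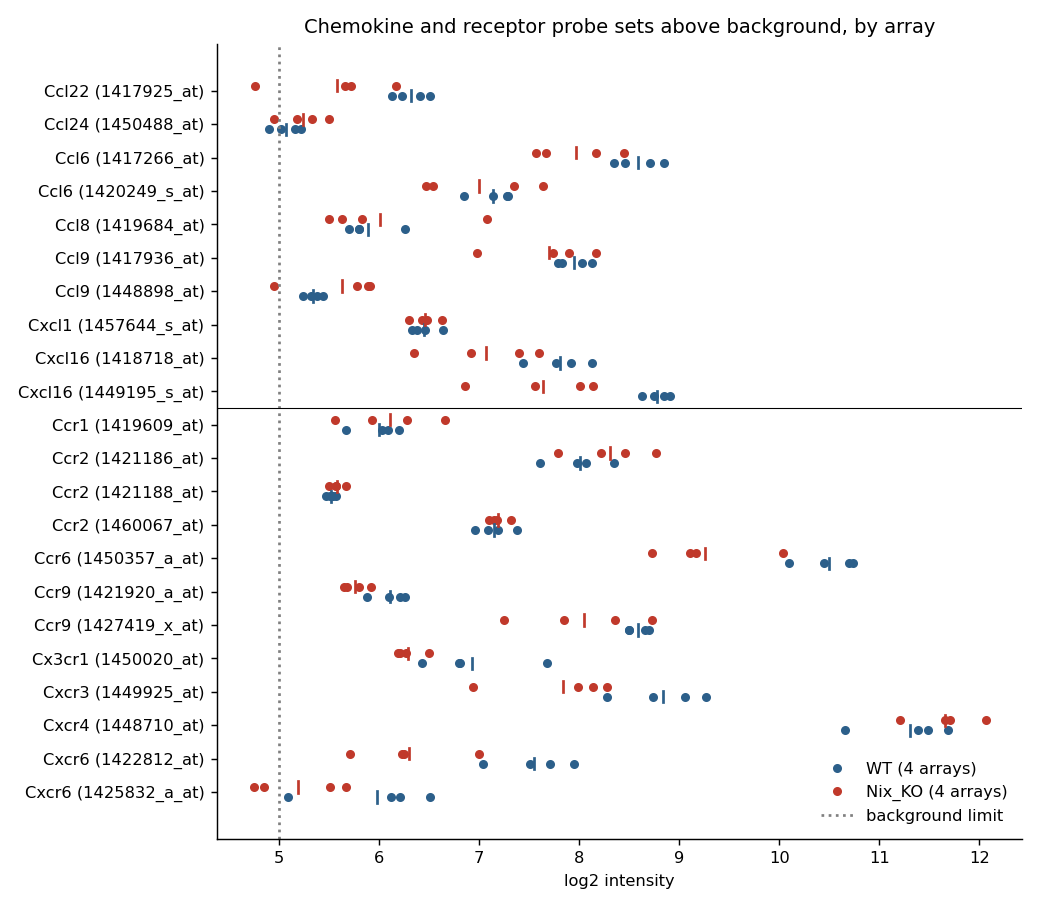
Log2 intensity of each of the 22 chemokine and chemokine receptor probe sets above background, in 4 Nix_KO and 4 WT arrays (1 point per array, short bars for the group means, dotted line at the background limit of 5), ligands above the line and receptors below it. The 4 Nix_KO points lie below all 4 WT points for Ccr6, for Cxcr6 (1422812_at) and for Cxcl16 (1449195_s_at).

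Of the 4 probe sets that fell, 3 belonged to receptors carried by lymphocytes. Ccr6, the receptor for CCL20 on mature B cells and on some helper T cells, had 1 probe set (1450357_a_at). It read 10.03, 8.72, 9.17 and 9.11 in Nix_KO 10, 2, 3 and 6 and 10.10, 10.45, 10.69 and 10.74 in WT 3, 4, 5 and 6. Every Nix-null spleen lay below every wild-type spleen, but Nix_KO 10 was only just below WT 3. The fall was 2.36-fold (log2 -1.24 ± 0.28 SE, limma adjusted p = 0.0102). In whole spleen, fewer cells of a type and less RNA per cell cannot be told apart.

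Markers of B cells moved with Ccr6. Of 10 B cell markers tested 10 fell, where 24.1% of all 11027 genes tested fell, and all 10 fell by the unequal-variance test too. The list mean ran from 9.67 to 10.43 in Nix-null and from 11.31 to 11.61 in wild-type arrays. Among the Nix-null arrays, Nix_KO 10 was highest and Nix_KO 2 lowest for Ccr6 and for the list alike. Nix_KO 3 and 6 stood in opposite order, at 9.17 and 9.11 for Ccr6 and at 9.77 and 10.03 for the list. In wild-type arrays Ccr6 was highest in WT 6 and the list in WT 4. Nix_KO 10 was also the highest Nix-null array for the T cell and dendritic cell lists, at 9.45 and 8.61. The list mean was 1.499 lower in Nix-null spleen, and the change of Ccr6 minus that of the list was 0.26 (exact permutation p = 0.2, two-sided, adjusted p = 0.533 over 7 such comparisons of a member with a marker list). Relative to the list, Ccr6 stood at -0.72 ± 0.27 in the Nix-null arrays and at -0.98 ± 0.24 in the others (SD, n = 4 each). The 7 comparisons were chosen after the values were seen, and 4 arrays against 4 cannot give a p below 0.0286. After adjustment a single comparison could then not go below 0.2, and 5 of the 7 would have to reach the smallest p for any to pass, so the adjusted values could hardly show a difference. The part of cell numbers in these changes was not tested.

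Cxcr6 is the receptor for CXCL16 on effector T cells, natural killer cells and natural killer T cells. Its brighter probe set (1422812_at) read 6.99, 5.71, 6.25 and 6.22 in Nix_KO 10, 2, 3 and 6 and 7.50, 7.95, 7.04 and 7.71 in WT 3, 4, 5 and 6. The groups did not overlap, though Nix_KO 10 and WT 5 nearly met. The fall was 2.39-fold (log2 -1.26 ± 0.29 SE, limma adjusted p = 0.0111). The other probe set (1425832_a_at) lay close to background, at 5.19 ± 0.46 in Nix-null and 5.98 ± 0.62 in wild-type spleen (SD, n = 4 each), and its change of -0.79 did not pass (limma adjusted p = 0.0961). Both probe sets had WT 5 as the lowest wild-type array. Without WT 5 the second passed too (-1.08, limma adjusted p = 0.0258, in a range from 0.0258 to 0.233). That was the only 1 of 16 alternatives in which it passed.

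Cxcr3 binds the interferon-induced ligands CXCL9, CXCL10 and CXCL11 and marks effector T cells and natural killer cells. Its probe set (1449925_at) read 8.14, 7.98, 6.94 and 8.28 in Nix_KO 10, 2, 3 and 6 and 8.28, 9.06, 8.74 and 9.27 in WT 3, 4, 5 and 6. The groups met at 8.28, where Nix_KO 6 and WT 3 stood, and Nix_KO 3 was well below the rest. The fall was 2.00-fold (log2 -1.003 ± 0.32 SE, limma adjusted p = 0.0404). This call was the least secure of the 4: it was lost without Nix_KO 2 (-1.05, limma adjusted p = 0.0639), Nix_KO 3 (-0.70, 0.0659), WT 4 (-0.93, 0.106), WT 5 (-1.04, 0.0789) or WT 6 (-0.86, 0.112), and with each array centred on its median (-0.88, 0.0523). The calls of the other 3 probe sets held in all 8 fits on 7 arrays.

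Most T cell and natural killer cell markers tested fell too. Over all 11027 genes tested 24.1% fell and 14.2% rose, and the unequal-variance test called 1077 lower and 864 higher. Of 12 T cell markers tested 8 fell (2 by the unequal-variance test), with list means from 8.50 to 9.45 in Nix-null and from 9.35 to 10.02 in wild-type arrays. Of 8 natural killer cell markers 7 fell (4 by the unequal-variance test), with list means from 6.67 to 7.12 and from 7.66 to 8.16. Ncr1 and Klrb1c, also on the natural killer list, were not tested. Gzmb, Prf1 and Klre1 lay near background, with Nix-null means of 4.71, 5.08 and 4.52. The change of Cxcr6 minus that of the T cell list was -0.37 (exact permutation p = 0.229, adjusted p = 0.533) and minus that of the natural killer list -0.20 (exact permutation p = 0.571, adjusted p = 0.867). For Cxcr3 the corresponding values were -0.12 (exact permutation p = 0.743, adjusted p = 0.867) and 0.05 (exact permutation p = 0.914, adjusted p = 0.914). Given that limit, the 4 values describe sizes and do not show that the receptors moved as the lists did.

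Cxcl16 was the ligand with a probe set that fell. It is a membrane-bound chemokine of macrophages and dendritic cells, shed as a soluble attractant for cells that carry CXCR6, and it also takes up oxidised lipoprotein. Probe set 1449195_s_at read 8.01, 8.14, 6.86 and 7.56 in Nix_KO 10, 2, 3 and 6 and 8.62, 8.85, 8.91 and 8.75 in WT 3, 4, 5 and 6. The wild-type spleens were close together, with an SD of 0.12, and the Nix-null spleens were spread below them, with an SD of 0.58 and Nix_KO 3 lowest. The fall was 2.20-fold (log2 -1.14 ± 0.26 SE, limma adjusted p = 0.0120).

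The other Cxcl16 probe set (1418718_at) read 7.59, 7.40, 6.35 and 6.92 in the Nix-null arrays and 7.44, 7.91, 7.77 and 8.13 in the wild-type arrays, in the same order. Nix_KO 3 was again lowest, but Nix_KO 10 lay above WT 3, and the change of -0.74 ± 0.28 SE did not pass (limma adjusted p = 0.0671). It passed without Nix_KO 10 (-0.92, limma adjusted p = 0.0311), in a range of adjusted p from 0.0311 to 0.169 over the alternatives. Thus the ligand CXCL16 and its receptor CXCR6 each had 1 probe set that fell and 1 that pointed the same way without passing.

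Of 9 dendritic cell markers tested 7 fell (1 by the unequal-variance test), where 24.1% of all 11027 genes tested fell and 14.2% rose. Their list means ran from 7.90 to 8.61 in Nix-null and from 8.89 to 9.31 in wild-type arrays. Of 17 monocyte and macrophage markers, a list that holds Ccr2, 4 fell and 0 rose, with list means from 9.58 to 10.42 and from 10.17 to 10.52. For that list there were 7 falls and 0 rises at an unadjusted p under 0.05, 1 and 0 by the unequal-variance test, and 9 and 1 with array weights. The change of Cxcl16 minus that of the dendritic list was -0.14 (exact permutation p = 0.657, adjusted p = 0.867) and minus that of the monocyte and macrophage list -0.70 (exact permutation p = 0.0857, adjusted p = 0.533).

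**Figure D2:**
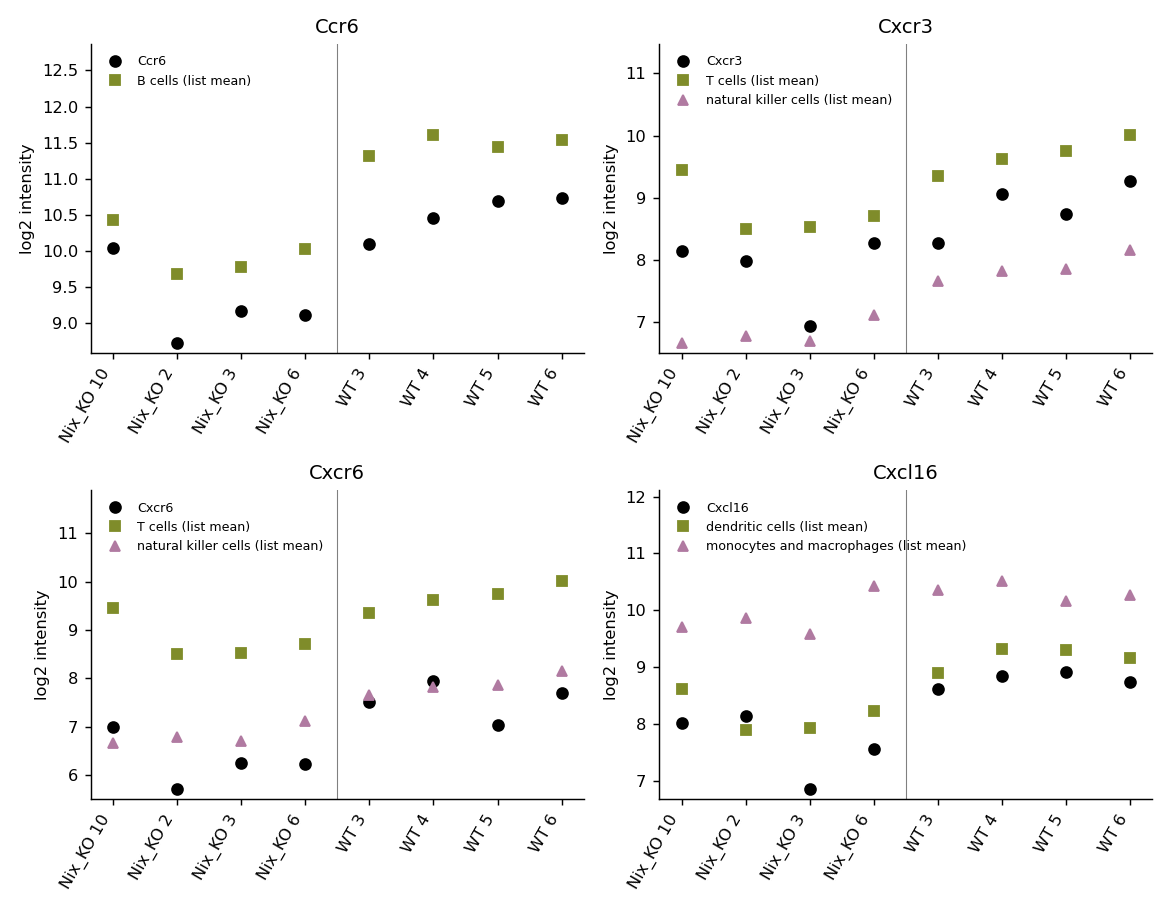
Log2 intensity in each array of Ccr6, Cxcr3, Cxcr6 (1422812_at) and Cxcl16 (1449195_s_at), black circles, beside the list mean of the cell type markers set against each, coloured symbols, with the 4 Nix_KO arrays left and the 4 WT arrays right of the vertical line. For Ccr6 the member and the B cell list both have Nix_KO 10 as the highest Nix_KO array, at 10.03 and 10.43.

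Other receptors above background did not pass. Cxcr4, the receptor for CXCL12 that keeps precursors and B cells in their niches, was the brightest member on these arrays, at 12.06, 11.20, 11.70 and 11.65 in Nix_KO 10, 2, 3 and 6 and 10.66, 11.39, 11.48 and 11.69 in WT 3, 4, 5 and 6. WT 3 was lowest and the other arrays overlapped. Its change was 0.35 ± 0.26 SE (limma adjusted p = 0.320), with no alternative under 0.148.

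Ccr2, the receptor that draws inflammatory monocytes out of bone marrow towards CCL2, had 3 probe sets above background. The brightest (1421186_at) read 8.77, 8.22, 8.45 and 7.79 in the Nix-null and 8.07, 7.61, 8.35 and 7.98 in the wild-type arrays, which overlapped. Its change of 0.30 ± 0.24 SE did not pass (limma adjusted p = 0.353), but did with array weights (0.66, limma adjusted p = 0.0445), where the alternatives spanned 0.0445 to 0.901. The other Ccr2 probe sets changed by 0.06 and 0.03. Ccr1, which binds CCL3 and, in mice, CCL6 and CCL9 on neutrophils and monocytes, read 6.11 ± 0.47 in Nix-null and 5.996 ± 0.23 in wild-type spleen (SD, n = 4 each, limma adjusted p = 0.750).

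Cx3cr1, the fractalkine receptor of patrolling monocytes and of macrophage precursors, read 6.27, 6.21, 6.19 and 6.50 in Nix_KO 10, 2, 3 and 6 and 6.43, 6.80, 6.81 and 7.68 in WT 3, 4, 5 and 6. WT 6 stood highest, and WT 3 fell within the Nix-null range. The change was -0.64 ± 0.25 SE (limma adjusted p = 0.0783). It passed without WT 3 (-0.80, limma adjusted p = 0.0407), in a range from 0.0407 to 0.297.

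Ccr9, the gut-homing receptor for CCL25, had 5 probe sets, of which 2 were above background. The brighter one (1427419_x_at) read 8.72, 7.85, 8.36 and 7.25 in the Nix-null arrays and from 8.49 to 8.70 in the wild-type arrays, so Nix_KO 10 lay above all wild-type spleens and Nix_KO 6 far below them. Its change was -0.54 ± 0.28 SE (limma adjusted p = 0.171), and without Nix_KO 10 it was -0.77 (0.0453, in a range from 0.0453 to 0.522). The other probe set (1421920_a_at) changed by -0.35 (limma adjusted p = 0.0984). An x_at probe set holds probes that also match other transcripts, so its level may include them.

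Ccl6 and Ccl9 are a neighbouring pair of CC chemokines of mouse macrophages and myeloid cells that bind CCR1. Ccl6 (1417266_at) read 7.67, 8.45, 7.57 and 8.17 in Nix_KO 10, 2, 3 and 6 and 8.45, 8.71, 8.85 and 8.35 in WT 3, 4, 5 and 6. Nix_KO 2 reached the wild-type range and the other Nix-null arrays lay below it. The change was -0.63 ± 0.22 SE (limma adjusted p = 0.0596), and it passed without Nix_KO 2 (-0.79, 0.0239) and with array weights (-0.82, 0.00865), in a range from 0.00865 to 0.389. The other Ccl6 probe set (1420249_s_at), of a kind shared by several transcripts, changed by -0.14 (limma adjusted p = 0.717).

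Ccl9 (1417936_at) read 7.90, 8.16, 6.98 and 7.74 in the Nix-null and from 7.79 to 8.13 in the wild-type arrays, and changed by -0.25 (limma adjusted p = 0.461). Its dimmer probe set (1448898_at) pointed the other way, at 5.78, 5.91, 4.95 and 5.89 against 5.24 to 5.44. There 3 Nix-null spleens lay above all wild-type spleens and Nix_KO 3 below them, with a change of 0.29 (limma adjusted p = 0.340). Without Nix_KO 3 it was 0.52 (limma adjusted p = 0.0303, in a range from 0.0303 to 0.882). The pair of Ccl9 probe sets therefore gave no common direction.

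Ccl22, which dendritic cells secrete to attract CCR4-bearing T cells, read 6.17, 4.76, 5.66 and 5.72 in Nix_KO 10, 2, 3 and 6 and 6.12, 6.51, 6.23 and 6.41 in WT 3, 4, 5 and 6. Nix_KO 2 was below background and Nix_KO 10 was level with WT 3. Its change was -0.74 ± 0.27 SE (limma adjusted p = 0.0654), and it passed without Nix_KO 10 (-0.94, 0.0230, in a range from 0.0230 to 0.307). Ccl8, an interferon-inducible monocyte attractant, read 7.08 in Nix_KO 2 and from 5.50 to 5.83 in the other Nix-null arrays, against 5.70 to 6.25 in wild-type arrays (change 0.12, limma adjusted p = 0.804). Ccl24, an eosinophil attractant, lay at the background limit, at 5.24 ± 0.23 and 5.07 ± 0.14 (SD, n = 4 each, limma adjusted p = 0.461).

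Cxcl1, a neutrophil attractant, had 3 probe sets that disagreed on whether it was above background. The s_at probe set (1457644_s_at) read 6.46 ± 0.14 in Nix-null and 6.45 ± 0.13 in wild-type spleen (SD, n = 4 each), a change of 0.01 ± 0.14 SE (limma adjusted p = 0.973). The other 2 stayed between 3.88 and 4.95 in all 8 arrays. Its counting as above background therefore rests on 1 probe set, which carries no accession in the annotation.

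**Figure D3:**
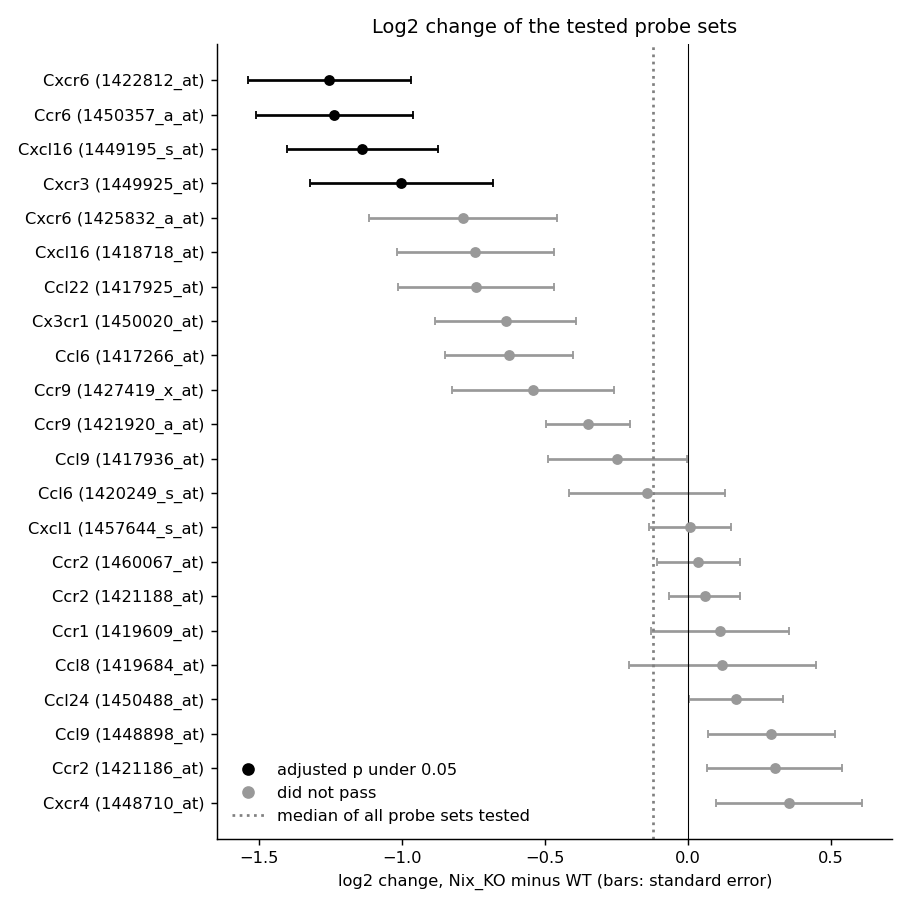
Log2 change, Nix_KO minus WT, of each of the 22 probe sets above background, with its standard error from the limma fit, in order of size. Black points passed at an adjusted p under 0.05, all 4 with changes of -1.003 or lower, and the dotted line marks the median change of all probe sets tested, -0.12.

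Counted by gene, with the brightest probe set for each, 6 of 15 member genes were lower and 0 higher (limma, adjusted over 11027 genes), where 38.3% of all genes were called, 24.1% lower and 14.2% higher. At an unadjusted p under 0.05 there were 7 lower and 0 higher, and the unequal-variance test called 0. The 6 were the 4 above with Ccl6 (limma adjusted p = 0.0432) and Ccl22 (0.0472), which did not pass over all probe sets. The Ccl6 call was lost with the mean of its probe sets (-0.39, limma adjusted p = 0.218), with centring (-0.49, 0.0939) and quantile normalization (-0.54, 0.0926), and without Nix_KO 10, Nix_KO 3 or any one of the 4 wild-type arrays (0.0534 to 0.113). The Ccl22 call was lost with centring (-0.61, limma adjusted p = 0.0755) and quantile normalization (-0.70, 0.0592), and without any single array other than Nix_KO 10 (0.0576 to 0.118). Of 7 ligands 3 fell and of 8 receptors 3 fell. Without WT 4, WT 5 or WT 6 the count was 3 in each case, as it was without the 3 arrays with pancreatic signal. The probe set count was 7 in place of 4 without Nix_KO 10.

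No probe set above background was found for 16 of the 31 genes. They were 11 ligands, Ccl2, Ccl3, Ccl4, Ccl7, Ccl12, Ccl17, Ccl25, Cxcl2, Cxcl5, Cxcl11 and Cxcl14, and 5 receptors, Ccr3, Ccr4, Ccr8, Ccr10 and Cxcr2. These include the classical alarm chemokines for monocytes (Ccl2, Ccl7 and Ccl12) and for neutrophils (Cxcl2 and Cxcl5). The 14 probe sets of these ligands read from 1.99 to 5.59 and the 5 of these receptors from 1.89 to 5.76. Ccl2 read from 3.54 to 3.82 in Nix-null and from 3.42 to 3.51 in wild-type arrays, and Cxcl2 from 2.45 to 2.80 and from 2.22 to 2.99. A rise to a log2 intensity of 5 in all 4 Nix-null arrays would have brought a probe set into the test, and none of these did so. A fall, or a change that stayed under that limit, was not detectable here. A log2 intensity of 5 was reached on 1 array each for Ccr3, Cxcl11, Cxcl5 and Cxcr2. It was reached on 2 arrays for Ccl25 (5.59 in Nix_KO 2 and 5.04 in Nix_KO 6) and for Ccl4 (5.03 in WT 4 and 5.31 in WT 5).

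Counting the dim probe sets of the other members, 27 of the 49 were not above background, and 19 of the 27 reached a log2 intensity of 5 in none of the arrays. The highest single readings were those of Ccr3, the eotaxin receptor of eosinophils, at 5.76 in Nix_KO 6 against 4.21 to 4.32 in the other Nix-null and 3.87 to 4.17 in the wild-type arrays, and of Ccl25, at 5.59 in Nix_KO 2. Cxcr2, the neutrophil receptor for CXCL1 and CXCL2, read from 4.41 to 4.90 in Nix-null and from 4.67 to 5.04 in wild-type arrays. Of 11 neutrophil markers tested 9 rose, where 14.2% of all genes tested rose (3 markers rose with array weights and 0 by the unequal-variance test). List means ran from 10.16 to 10.82 in Nix-null and from 7.70 to 9.91 in wild-type arrays. The 2 that did not pass were Mmp9 (change 0.36, limma adjusted p = 0.263) and Csf3r (-0.11, 0.742). The Cxcr2 probe set, whose gene is also on that marker list, stayed at background in both groups.

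The Nix-null mean was the higher one in 20 of the 27 dim probe sets, where 83.7% of all 22690 dim probe sets had it higher too. Nix_KO 2 alone was the highest of the 8 arrays in 15 of the 27 and in 64% of all dim probe sets. The small upward differences of dim chemokines, with a median of 0.12 against 0.13 over all dim probe sets, were thus of the size found across the array.

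**Figure D4:**
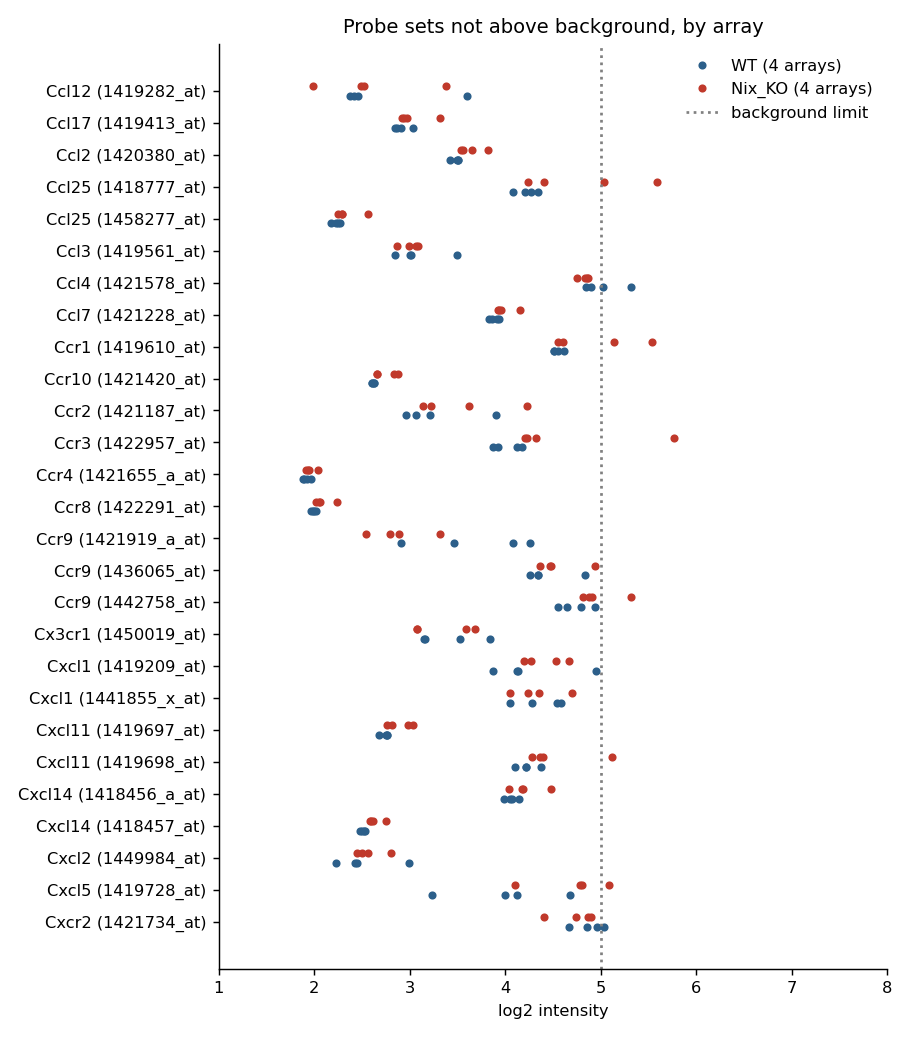
Log2 intensity of each of the 27 chemokine and receptor probe sets not above background, in 4 Nix_KO and 4 WT arrays (1 point per array, dotted line at the background limit of 5). Of the 27, 19 stay left of the line in all 8 arrays, and Ccr3 in Nix_KO 6 reaches 5.76.

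The chromosomal positions of the members were set beside their calls, and whether neighbours changed alike was not tested. Per RefSeq, 8 of the 31 genes lie on chromosome 9, all of them receptors, and Ccr9, Cxcr6, Ccr1, Ccr3 and Ccr2 follow each other there in that order among the members. In that row Cxcr6 fell, Ccr9, Ccr1 and Ccr2 did not pass, and Ccr3 was below background. Chromosome 11 carries 10 of the genes, among them Cxcl16, which fell, the dim run Ccl2, Ccl7 and Ccl12 with Ccl8 beside it, and the run Ccl9, Ccl6, Ccl3 and Ccl4, of which the first pair was above background and the second was not.

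Other genes of the chemokine system were counted from lists written with earlier results of these data known. Of 11 tested chemokines outside the 31 genes, 4 fell and 0 rose, where 24.1% of all 11027 genes tested fell and 14.2% rose. Their median change was -0.25, against -0.15 over all genes tested. At an unadjusted p under 0.05 there were 5 lower and 1 higher, and by the unequal-variance test 1 lower and 0 higher. The falls were Ccl5 (2.22-fold), made by T cells and natural killer cells, Cxcl10 (2.48-fold), a ligand of CXCR3, Cxcl12 (1.73-fold), the ligand of CXCR4, and Cxcl13 (2.27-fold), which draws B cells into follicles (limma adjusted p = 0.00227, 0.00578, 0.0132 and 0.0232). Cxcl9, the other CXCR3 ligand above background, changed by -0.90 (limma adjusted p = 0.0629), and Cxcl11 was dim. Thus for CXCR3 the receptor and 1 of its 3 ligands fell, for CXCR6 the receptor and its ligand, and for CXCR4 the ligand but not the receptor.

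Of 8 other chemokine receptors tested, 5 fell and 2 rose, with a median change of -0.75, where 24.1% of all genes fell and 14.2% rose. The unequal-variance test called 3 lower and 2 higher. Cxcr5, the follicular homing receptor that binds CXCL13, read 9.75, 8.40, 8.04 and 9.07 in Nix_KO 10, 2, 3 and 6 and from 10.83 to 11.25 in wild-type arrays, a fall of 4.64-fold (limma adjusted p = 0.00149). Ackr2, a scavenger that degrades inflammatory CC chemokines, fell 2.81-fold (limma adjusted p = 0.00196). The 2 that rose were Ackr1, the Duffy antigen that binds chemokines on red cells and venules (5.61-fold, limma adjusted p = 0.00152), and Ccrl2, a non-signalling receptor that presents chemerin (2.74-fold, limma adjusted p = 0.00213). Of red cell precursor markers, 10 of 10 tested rose (3 by the unequal-variance test), with list means from 12.38 to 12.87 in Nix-null and from 9.55 to 11.47 in wild-type arrays.

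Of 35 genes of chemokine receptor signalling, 20 fell and 2 rose, with a median change of -0.70, beside the same shares over all genes. The unequal-variance test called 8 lower and 1 higher. The 4 with the smallest adjusted p were Ptk2b, a kinase activated by calcium (2.59-fold), Plcb3, a phospholipase driven by G proteins (2.08-fold), Pik3cd, the leukocyte PI3 kinase (2.53-fold), and Vav1, an exchange factor for Rac (2.40-fold), all lower (limma adjusted p from 0.00132 to 0.00207). The risers were Arrb1, which ends receptor signals by desensitisation (log2 1.37), and Pik3cg (log2 0.71). Of 19 tested inducers and regulators of chemokine genes, 15 fell and 0 rose, with a median change of -0.81. Over all 11027 genes tested, 24.1% fell and 14.2% rose. The cytokines Tnf (-0.41, limma adjusted p = 0.147) and Il1b (-0.67, 0.200) did not pass. Il1a, Ifng, Il4, Il13, Il17a, Il6 and Il10 were not tested, so the 15 held no cytokine gene. Without adjustment 15 of the 19 fell and 0 rose as well, where 3414 of all 11027 genes fell and 1940 rose. The unequal-variance test called 9 lower and 0 higher, against 1077 and 864 over all genes. Nfkb2 and Relb, of the NF-kappaB family, fell 3.24-fold and 3.15-fold, Il4ra, the interleukin 4 receptor chain, 3.39-fold, and Zfp36, which destabilises cytokine mRNA, 2.69-fold (limma adjusted p = 0.000935, 0.00159, 0.00115 and 0.00154). Lymphocyte markers fell beside these genes, as given above. So did 10 of 12 stroma and endothelium markers tested (4 by the unequal-variance test). Their list means ran from 7.46 to 8.29 in Nix-null and from 8.86 to 9.15 in wild-type arrays. The part of these cell types in the counts was not tested.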

How the data were processed

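Whole-spleen RNA was hybridised to Affymetrix mouse arrays, 1 spleen per array. The authors deposited 1 linear intensity per probe set and array, made with GCRMA per the submitters' processing notes (version not given), which corrects background, normalizes between arrays and compresses weak signals near background. How they were made linear is not stated. Depth has no counterpart on arrays, and the 4 arrays a group limit the precision. All intensities were above 0 and were log2-transformed with no offset. The 64 control probe sets were left out. Symbols came from the platform annotation (34945 probe sets with 1 symbol, 932 with several, 9160 with none), and all 49 member probe sets carried 1 symbol. Replicate arrays correlated at 0.938 to 0.986 within groups and none was a duplicate.

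Genotypes were compared with limma 3.58.1 in R 4.3.3, by lmFit and eBayes. Its two-sided p-values were adjusted by Benjamini and Hochberg's method. The fit was tested on simulated data. Exact permutation tests used scipy 1.17.1, and figures matplotlib 3.10.9 in Python 3.11.15. The members and lists were chosen with earlier results of these data known. Every member was to be named, with array values for those that passed or were brightest, and up to 4 genes of each other chemokine list with the smallest adjusted p. Of the 19, 11, 36 and 29 genes on those lists, 11, 8, 35 and 19 were tested. Leaving out the arrays with pancreatic signal was chosen after seeing the data. Nothing else was left out.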

Additional observations from a re-analysis of the deposited data

Results flagged for a closer look

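Within the 44 groups of 4 arrays examined for the 22 probe sets, 1 array stood apart from its group. For Ccl9 (1448898_at), Nix_KO 3 read 4.95 against 5.78 to 5.91 in the other Nix-null arrays, a gap of 0.866 of the group's range, above Dixon's limit for 4 samples. Chance gives such a gap in about 1 in 20 groups. The same array was also the lowest for the other Ccl9 probe set, at 6.98, and had the highest pancreatic list mean, 12.81.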

How the results depend on the processing

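Over the alternatives, 340 of 368 repeated values for the 22 probe sets kept their call or lack of one. Of the rest, 19 lost a call and 9 gained one, and no called change reversed. The 340 include changes without a call that turned sign. Examples are Ccl8, from 0.12 to -0.46 with the replicate block, and Ccl9 (1417936_at), from -0.25 to 0.13 without the 3 arrays with pancreatic signal. The member count, 4 lower and 0 higher, became 0 lower with the unequal-variance test, with the replicate block and without the 3 arrays with pancreatic signal. It was 1 higher with array weights, and 3 to 7 lower and 0 to 1 higher when single arrays were left out. By gene, 6 lower and 0 higher became 3 lower with no filter on dim probe sets and 0 with the unequal-variance test. The gene count was 3 lower without the pancreatic arrays and 4 lower with the replicate block. It was 1 higher under array weights and 3 to 6 lower without single arrays. Over all probe sets, 2789 higher and 3922 lower became 1130 and 1044 with the unequal-variance test and 500 and 190 without the pancreatic arrays. Leaving out single arrays gave 1889 to 2772 higher and 2096 to 4221 lower, with 2096, 2529 and 2107 lower without WT 4, WT 5 and WT 6. The numbers 3 and 6 occur in both genotypes and nothing in the labels pairs them. Their arrays' deviations correlated at 0.25 and 0.15. With the replicate block all probe sets gave 0 higher and 1 lower, in a fit with 1 residual degree of freedom. The reduced fits hold fewer arrays. The block fit takes all 8, but only the arrays numbered 3 and 6 inform its genotype change. The causes of these shifts were not tested. With list medians in place of list means, the change of Cxcl16 minus that of the dendritic list moved from -0.14 to -0.44, and minus that of the monocyte and macrophage list from -0.70 to -1.02. Cxcr6 minus the T cell list moved from -0.37 to -0.24, and Cxcr3 minus the T cell list turned from -0.12 to 0.02. Probe sets under a log2 intensity of 5 limit what these arrays can show.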
